A study of Mus musculus with 15 samples.

Results

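A list of 10 heat shock proteins and chaperones, of the 32372 genes measured, was followed in single-cell RNA sequencing of mouse microglia after a brain-penetrant antibody against TREM2, a receptor of microglia. They were taken by gene symbol as a list chosen with earlier results of these data known: Hspa1a, Hspa1b, Hspa8, Hspa5, Hsph1, Dnajb1, Hsp90aa1, Hsp90ab1, Hspd1 and Hspe1. All 10 were present and all 10 passed the filter on low counts. The 15 mice were males of 3.5 months, hTfR knock-in on C57BL/6J, and all of them, controls included, carried human transferrin receptor sequence in their own receptor gene. A single dose of 10 mg/kg was given, either of ATV:4D9, the anti-TREM2 antibody 4D9 on an antibody transport vehicle (ATV) whose Fc engages this receptor, or of ATV:RSV, which carries a control antibody on that vehicle. Cells of cortex and hippocampus were enriched with CD45 beads at day 1, 7, 14 or 28 after ATV:4D9 and at day 1 after ATV:RSV, which made 5 groups of 3 mice, spread so that each of 3 batches held a mouse of every group. ATV:RSV was sampled at day 1 only, so its 3 mice served as the control of all 4 days.

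Chaperones bind unfolded proteins and help them to fold, and many are made in larger amounts when heat, oxidants or rapid protein synthesis raise the load of unfolded protein. In the cytosol, HSP70 proteins work in cycles with J-domain partners, which bring substrates and stimulate ATP hydrolysis, and with HSP110 proteins, which exchange the nucleotide, while HSP90 acts later on kinases and receptors. The endoplasmic reticulum and the mitochondrion have chaperones of their own, BiP in the former and the HSP60/HSP10 chamber in the latter, and in tissue that has been dissociated the inducible HSP70 genes are also known to respond to the handling of the cells.

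The deposited files held 102043 cells, 5667 to 7596 per mouse, with 32341960 to 70307384 unique molecular identifiers (UMIs, 1 per captured RNA molecule) per mouse. Markers that define microglia were detected widely: P2ry12 in 98.5%, Tmem119 in 98.3% and Sall1 in 73.8% of cells. The day 1 ATV:4D9 mice stood apart from the other 12 in depth (median 8201.5 to 8995.5 UMIs per cell against 4694 to 6117), in cells with a UMI of the proliferation genes Mki67 or Top2a (19.6% to 27.4% against 0.169% to 0.684%) and in the deposited cluster 2, which held 5607 to 6597 of their cells against 74 to 245. The median mitochondrial share of UMIs was 3.96% to 4.50% in them and 3.11% to 3.38% in ATV:RSV mice. Summed over marker lists (CPM of the plain library size), 8 microglia markers had 14652 to 16344 against 21193 to 22831 in ATV:RSV mice, 5 monocyte markers 27.8 to 30.9 against 6.34 to 15.4, and 5 dendritic cell markers, 1 of which (Siglech) microglia also express, 499.6 to 557 against 1206 to 1279.6, with no marker of these lists at 0 in either group. Of 16 such lists, 7 were lower in every day 1 mouse than in every ATV:RSV mouse, 2 were higher and 7 overlapped. The other lower lists were astrocyte (116 to 121 against 221 to 271), oligodendrocyte (29.2 to 32.3 against 48.4 to 65.6), neuron (4.85 to 6.81 against 9.87 to 13.2), endothelial (12.4 to 17.3 against 21.1 to 28.3) and B cell markers (205 to 223 against 229 to 278), and the other higher list was that of oligodendrocyte precursors (1.16 to 1.59 against 0.590 to 1.01). Of 100747 barcodes, 1283 occurred in more than 1 mouse. UMIs were added up within a mouse, and levels are given as counts-per-million values (CPM) of the TMM-scaled library size. The part of depth, proliferation, cluster, marker levels and mitochondrial share in the differences at day 1 was not tested as a cause. For some of the genes, differences without the proliferating cells, shares of cells at equal depth and ratios within each cluster are given beside them. In sums, fewer cells expressing a gene and less RNA per cell cannot be told apart.

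At day 1 after ATV:4D9, 7 of the 10 genes were higher than in ATV:RSV mice and none was lower (limma-voom on the sums per mouse, adjusted p under 0.05 over 14260 genes). Of all genes tested, 69.2% were called in this comparison, 34.7% higher and 34.6% lower, so a call alone was common. The 10 genes had a median log2 fold change of 1.42, against -0.05 for all genes. Because the list was chosen with earlier results of these data known, this contrast is a description. The 7 were Hspa5, Hspd1, Hspe1, Hsp90aa1, Hsp90ab1, Hspa8 and Hsph1, with 2.05 to 3.29 times the control level. Hspa1a, Hspa1b and Dnajb1 did not pass the test in this fit, which held no batch term. The p-values set each difference against the spread between mice within groups, which includes differences between batches.

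**Figure D1:**
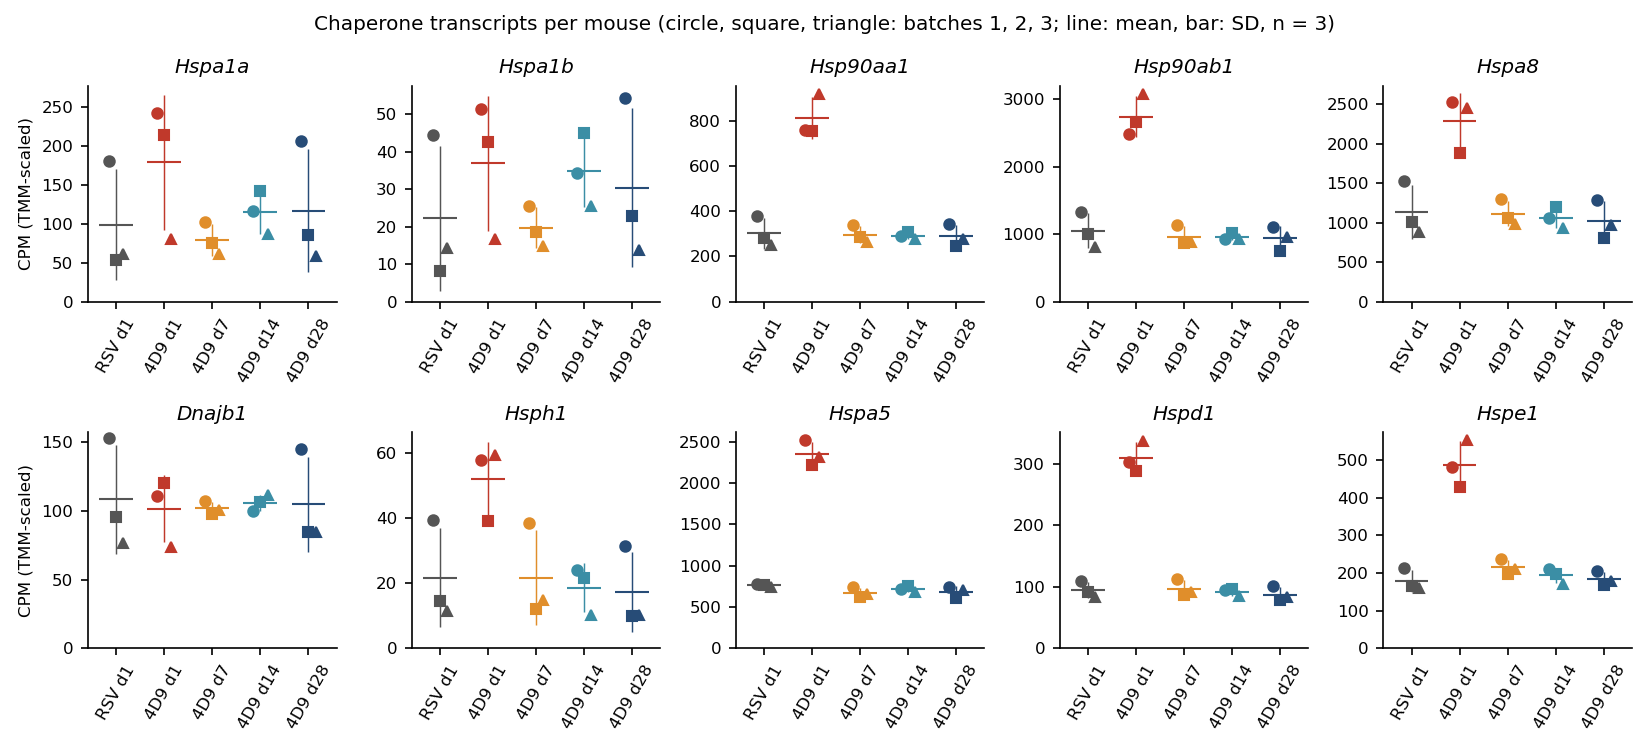
Level of each of the 10 genes in each of the 15 mice, as CPM of the TMM-scaled library size, with 1 panel per gene and the 5 groups along the x axis. Each point is 1 mouse, its shape the batch, each horizontal line the mean of 3 mice and each bar 1 SD. Hspa5, Hspd1, Hspe1, Hsp90aa1, Hsp90ab1 and Hspa8 have all 3 day 1 ATV:4D9 mice above the other 12, whereas Hspa1a, Hspa1b and Dnajb1 overlap in all groups.

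The endoplasmic reticulum was represented by Hspa5, which encodes BiP, the main HSP70 of that compartment and a sensor of its folding load. The ATV:RSV mice of batches 1, 2 and 3 had 782, 766 and 739 CPM of Hspa5. The day 1 ATV:4D9 mice had 2515, 2220.0 and 2317 CPM. The groups were far apart, and each was narrow. The difference was 1.62 on the log2 scale (SE 0.0743, adjusted p = 2.72e-11), with means of 2351 ± 150.4 and 762 ± 21.8 CPM (SD, n = 3). Within the batches it was 1.69, 1.54 and 1.65. Over the 9 mice of the later days Hspa5 ranged from 611 to 751 CPM. All 3 mice of day 7 (737, 621 and 659 CPM) lay below all 3 ATV:RSV mice, a separation that 10.2% of all genes showed in that direction, and the difference of -0.18 did not pass the test (SE 0.0755, adjusted p = 0.229).

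Hspa5 lies at chr2:34771970-34777547 on the plus strand of mm10 (GENCODE M21). The endoplasmic reticulum stress element, by which ATF6 and its partner NF-Y act on genes of this compartment, has a known spelling, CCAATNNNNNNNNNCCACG. It occurs on either strand in 37 of 32851 RefSeq windows of 250 bases before a start site (0.113%). The RefSeq window of Hspa5 is chr2:34771840-34772089, so its start site lies inside the span that GENCODE gives and not at the first base of that span. The window holds 1 match, 65 to 47 bases before the RefSeq start, and 4 copies of CCAAT, 1 of them inside the match, where 33.8% of windows hold at least 1. The stretch lies within the GENCODE span and is shown because Hspa5 had the smallest adjusted p of the 10 genes, and its capitals mark the match (RefSeq, GRCm38.p6, chr2:34772020-34772048, plus strand). A match of letters is a description of the sequence and not a measurement of binding.
Hspa5: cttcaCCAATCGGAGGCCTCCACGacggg

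The mitochondrial pair moved together. Hspd1 (HSP60) and Hspe1 (HSP10) encode the barrel and the lid of the chamber in which imported proteins fold. Hspd1 had 109, 90.8 and 83.0 CPM in the ATV:RSV mice and 302, 288 and 337 CPM at day 1 after ATV:4D9. All 3 treated mice were above all controls, and the difference of 1.72 (SE 0.112, adjusted p = 1.58e-09) had the largest fold change of the 10 genes, 3.29 times. Hspe1 had 214, 165 and 159 CPM in ATV:RSV mice and 483, 428 and 554 CPM at day 1, which gave 1.45 (SE 0.119, adjusted p = 2.25e-08). Both were higher in every batch, by 1.47, 1.67 and 2.02 for Hspd1 and by 1.18, 1.37 and 1.80 for Hspe1. At the later days Hspd1 ranged from 78.3 to 112 CPM and Hspe1 from 169 to 237 CPM, and both overlapped the controls. At day 7 Hspe1 had a mean of 215 ± 20.4 CPM against 179 ± 29.8 CPM, a difference of 0.27 (SE 0.121, adjusted p = 0.283).

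The 2 genes are neighbours on opposite strands, Hspd1 at chr1:55077835-55088243 (minus) and Hspe1 at chr1:55088132-55091307 (plus), and their annotated ends overlap by 112 bases head to head. RefSeq gives 2 starts for Hspd1, with windows of 250 bases at chr1:55088244-55088493, just before the GENCODE start, and at chr1:55087933-55088182, before a start inside the GENCODE span. The window of Hspe1 is chr1:55087898-55088147. The heat shock element is the binding sequence of HSF1, searched here on both strands as GAANNTTCNNGAA. It occurs in 153 of 32851 windows (0.466%). The window at the GENCODE start of Hspd1 holds no match. Nor does any window of Hspa5, Hsph1, Dnajb1, Hspa1a or Hspa1b, and no window was found for Hsp90aa1, Hsp90ab1 and Hspa8. A match was thus not a common feature of the listed genes that rose. The window of its inner start and that of Hspe1 overlap, and the overlap holds 2 overlapping matches. These lie 144 to 127 bases before the inner start of Hspd1 and 89 to 72 bases before the RefSeq start of Hspe1. The 30 bases around them are shown because they fall in a window of each gene of the pair, read from opposite strands, with the matches in capitals (RefSeq, GRCm38.p6, chr1:55088053-55088082, minus strand for Hspd1 and plus strand for Hspe1). They lie within the GENCODE span of Hspd1 and before that of Hspe1.
Hspd1: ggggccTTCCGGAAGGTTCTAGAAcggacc
Hspe1: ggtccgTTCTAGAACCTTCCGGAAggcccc

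The cytosolic HSP90 genes rose to a like degree. Hsp90aa1 encodes the form known to be stress-inducible and Hsp90ab1 the form made constitutively. Hsp90aa1 had 379.9, 282 and 249 CPM in ATV:RSV mice and 760.3, 756 and 919 CPM at day 1 after ATV:4D9. All treated mice were above all controls, and the difference was 1.44 (SE 0.141, adjusted p = 1.9e-07). Hsp90ab1 had 1328, 1001 and 817 CPM in ATV:RSV mice and 2487, 2659.6 and 3078 CPM at day 1, a difference of 1.41 (SE 0.160, adjusted p = 9.85e-07). For both genes the difference within batches ran from its lowest value in batch 1 to its highest in batch 3, 1.00, 1.43 and 1.89 for Hsp90aa1 and 0.90, 1.41 and 1.91 for Hsp90ab1. In each case the control of batch 1 was the highest of the 3 controls and the treated mouse of batch 3 the highest of its group. At the later days the 2 genes ranged from 248 to 343 CPM and from 744 to 1137 CPM, within or just below the range of the controls.

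Among the cytosolic HSP70 genes, the constitutive form passed the test and the inducible forms did not. Hspa8 (HSC70) had 1527, 1005 and 879 CPM in ATV:RSV mice and 2526, 1884 and 2446 CPM at day 1 after ATV:4D9. The groups did not overlap, and the difference was 1.03 (SE 0.193, adjusted p = 0.000178). Hspa1a had 180.2, 54.1 and 61.0 CPM in ATV:RSV mice and 241, 214 and 80.4 CPM at day 1. Here the control of batch 1 exceeded the treated mouse of batch 3, and the difference of 0.93 had a wide error (SE 0.497, adjusted p = 0.106). Hspa1b had 44.4, 8.08 and 14.4 CPM in ATV:RSV mice and 51.4, 42.7 and 16.8 CPM at day 1, a difference of 0.93 as well (SE 0.567, adjusted p = 0.155). Within the batches both genes were higher in all 3 treated mice, by 0.42, 1.98 and 0.40 for Hspa1a and by 0.21, 2.40 and 0.22 for Hspa1b. With the batch as a replicate block in the fit, both passed the threshold, Hspa1a at 0.93 (adjusted p = 0.0121) and Hspa1b at 0.88 (adjusted p = 0.0437), which brought the count to 9 of 10, where 35.8% of all genes were called higher in that fit. Without the batch 1 control the differences were 1.49 for Hspa1a (adjusted p = 0.0146) and 1.66 for Hspa1b (adjusted p = 0.0287), also past the threshold. Without the treated mouse of batch 3 they passed it as well, at 1.43 (adjusted p = 0.0182) and 1.40 (adjusted p = 0.0356). Leaving out other mice lowered the differences. Over the 6 mice left out 1 at a time they ranged from 0.62 to 1.49 for Hspa1a and from 0.40 to 1.66 for Hspa1b.

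Hspa1a and Hspa1b are single-exon genes 9951 bases apart on the minus strand of mm10, at chr17:34969190-34972156 and chr17:34956436-34959238, and encode near-identical proteins. Reads that match both cannot be assigned: 49.1% of the 91-base windows of the Hspa1a transcript and 52.0% of those of Hspa1b occur in the other transcript. In the last 500 bases, near which the reads of a 3′ kit mostly fall, none of 410 windows was shared. Their promoters are nearly the same sequence too and are shown because the 2 genes varied together from mouse to mouse. Over the 250 bases before the start site they differ at 3 positions (98.8% identity), C44T, T47C and T249G, with the base of Hspa1a first, the position counted from 1 at the 5′ end, and the base of Hspa1b last. The capitals mark the pair of inverted repeats GAANNTTC (held by 6.69% of windows), 104 to 97 bases before the start, and CCAAT on the other strand, 67 to 63 bases before it. Sequences are from RefSeq, GRCm38.p6, minus strand, chr17:34972157-34972406 for Hspa1a and chr17:34959239-34959488 for Hspa1b.
Hspa1a: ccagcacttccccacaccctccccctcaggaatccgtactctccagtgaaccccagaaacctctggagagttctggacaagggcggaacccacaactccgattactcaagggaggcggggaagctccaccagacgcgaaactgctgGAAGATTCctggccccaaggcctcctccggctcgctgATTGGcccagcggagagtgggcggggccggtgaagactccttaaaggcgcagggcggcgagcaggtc
Hspa1b: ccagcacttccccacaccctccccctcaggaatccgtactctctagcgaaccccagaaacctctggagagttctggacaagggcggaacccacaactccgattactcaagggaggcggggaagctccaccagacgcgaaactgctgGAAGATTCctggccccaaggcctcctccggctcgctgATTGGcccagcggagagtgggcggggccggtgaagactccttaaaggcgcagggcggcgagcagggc

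The partners of cytosolic HSP70 differed from each other. Hsph1 (HSP110), which exchanges the nucleotide of HSP70, had 39.3, 14.5 and 11.3 CPM in ATV:RSV mice and 57.9, 39.1 and 59.3 CPM at day 1 after ATV:4D9. It rose by 1.42 (SE 0.471, adjusted p = 0.0139), although the control of batch 1 lay just above the treated mouse of batch 2. That call was lost without the ATV:RSV mouse of batch 2 (1.24, adjusted p = 0.0560) or batch 3 (1.07, adjusted p = 0.0736). Within the batches the difference was 0.56, 1.43 and 2.39. Dnajb1 (HSP40), the stress-inducible J-domain partner that stimulates HSP70, had 153, 95.8 and 76.4 CPM in ATV:RSV mice and 111, 119.9 and 73.9 CPM at day 1. The groups overlapped throughout, with a difference of -0.06 (SE 0.233, adjusted p = 0.820) and signs that differed between batches (-0.47, 0.32 and -0.05). Dnajb1 was the only one of the 10 genes with a fold change below 0 at day 1.

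**Figure D2:**
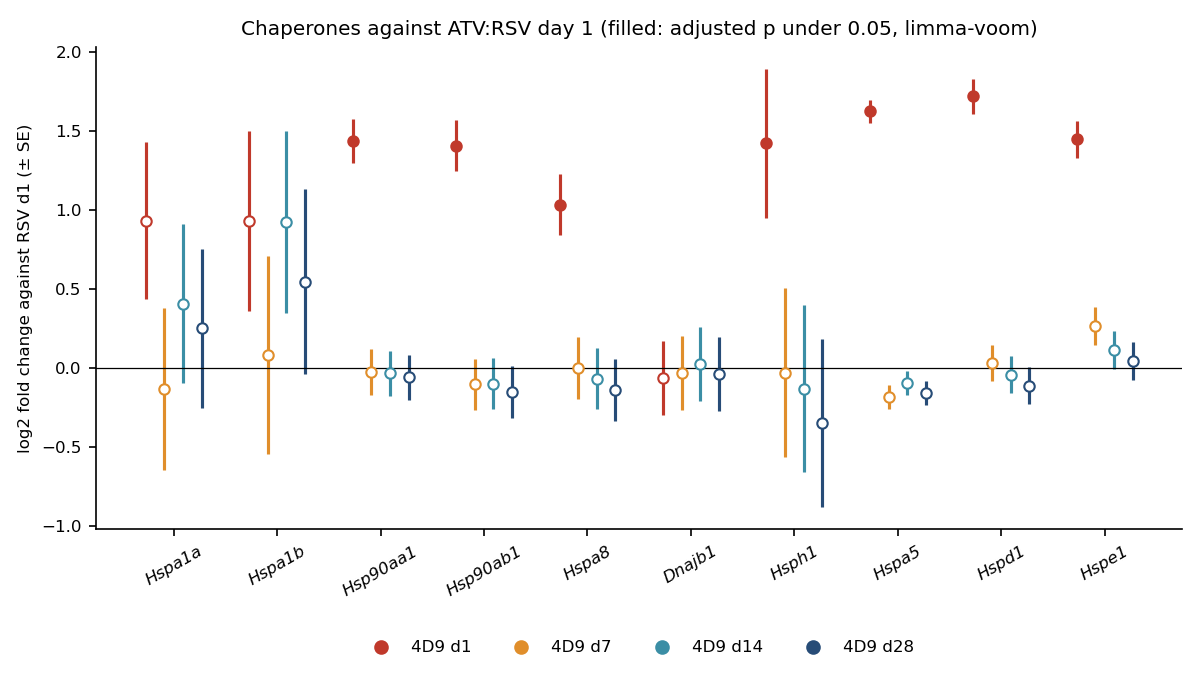
Log2 fold change of each of the 10 genes against ATV:RSV at days 1, 7, 14 and 28 after ATV:4D9, from limma-voom, with bars of 1 SE. Filled points passed the adjusted p threshold of 0.05. 7 genes are filled at day 1, from 1.03 for Hspa8 to 1.72 for Hspd1, and none at the later days.

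At day 7, 14 and 28 none of the 10 genes passed the test against ATV:RSV, where 3.98%, 0.4% and 0% of all genes were called. At day 7 the log2 differences ran from -0.18 for Hspa5 to 0.27 for Hspe1, with a median of -0.03. At day 14 they ran from -0.13 for Hsph1 to 0.92 for Hspa1b, whose error was wide (SE 0.577), with a median of -0.04. At day 28 they ran from -0.35 for Hsph1 to 0.55 for Hspa1b, and no gene of any kind was called by limma-voom at that day (571 genes at an unadjusted p under 0.05), nor by edgeR, against 14 genes by DESeq2. A missed threshold does not show equal levels: for Hspa1a, Hspa1b and Hsph1 the SE at these days was 0.503 to 0.625, and for Hspa5 it was 0.0753 to 0.0755. With 1 mouse left out, Hspa1b ranged from 0.39 to 1.65 at day 14 and from 0.00024 to 1.27 at day 28.

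Between day 1 and day 7 of ATV:4D9, 7 of the 10 genes fell and none rose, in a comparison where 66.9% of all genes were called and 33.9% were lower. The genes were those that were higher at day 1, and the day 1 mice enter both comparisons. All 3 mice of day 7 were below all 3 mice of day 1 for each of the 7, as for 35.2% of all genes. Hspa5 fell by 1.81 (adjusted p = 9.74e-12), from 2351 ± 150.4 to 673 ± 59.2 CPM. Hspd1 fell by 1.69 (adjusted p = 2.37e-09) and Hspe1 by 1.18 (adjusted p = 2.72e-07), while the HSP90 genes fell by 1.46 for Hsp90aa1 (adjusted p = 1.78e-07) and 1.51 for Hsp90ab1 (adjusted p = 4.97e-07). Hspa8 fell by 1.03 (adjusted p = 0.000195) and Hsph1 by 1.45 (adjusted p = 0.0146). Without the day 7 mouse of batch 2 or 3 the Hsph1 value was -1.17 (adjusted p = 0.0650) or -1.23 (adjusted p = 0.0738). For Hspa1a the difference was -1.07 (adjusted p = 0.0721), which passed with the replicate block (-1.07, adjusted p = 0.00567) and made the count 8. For Hspa1b it was -0.85 (adjusted p = 0.200) and for Dnajb1 0.03 (adjusted p = 0.916). In an F test over the 5 groups, which called 66.5% of all genes, the same 7 genes passed, from Hspa5 (adjusted p = 1.64e-11) to Hsph1 (adjusted p = 0.0241), and Dnajb1 had the largest adjusted p (0.997).

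Variation from mouse to mouse within a group differed by gene. Hspa1a ranged from 58.0 to 206 CPM at day 28 and Hspa1b from 13.9 to 54.4 CPM, and the highest mouse of both was that of batch 1. In ATV:RSV, day 7 and day 28 the mouse of batch 1 was the highest of its group for every gene of the list. Hspa5 ranged from 611 to 745 CPM at day 28 and from 739 to 782 CPM over the controls. After the group means were subtracted, Hspa1a and Hspa1b correlated at a Pearson r of 0.98 over the 15 mice, Hspa1a and Dnajb1 at 0.89, Hsp90aa1 and Hsp90ab1 at 0.96, Hsph1 and Hspd1 at 0.96, and Hspd1 and Hspe1 at 0.93. Hspa1a and Hspd1 were less alike, at 0.53. These values are descriptions: the points share libraries, depth and batches, and Hspa1a and Hspa1b share sequence.

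The genes outside the list whose levels were most like 4 of its genes, Hspa1a, Hspa8, Hspa5 and Hspd1, were sought over the 15 mice. For Hspa8 they were Stip1 (Pearson r 0.98), Fkbp4 (0.98) and Cacybp (0.97), of which the first 2 encode co-chaperones of HSP90. After subtraction of the group means they were Ahsa2 (0.93), Vamp5 (0.92) and Dynll1 (0.92). For Hspd1 they were Cct7, Ptges3 and Ywhab, each at 0.99, and after subtraction Fkbp4 (0.98), Stip1 (0.98) and Ahsa2 (0.97). For Hspa5, Pigf, Dnaja2 and Umps came first, and after subtraction Slc26a6 (0.93), Fut9 (0.92) and Tada3 (0.90). For Hspa1a the values were lower over all mice, led by Rrp8 (0.89), Esyt2 (0.88) and Tbc1d32 (0.88), and after subtraction the genes were Deaf1 (0.95), Nck1 (0.94) and Slc37a2 (0.94). For Hspa8, Hspa5 and Hspd1 the values over all mice include the separation of day 1 from the other groups, which the points share. Hspa1a overlapped in all groups, and its highest value was larger after subtraction (0.95) than before (0.89). The genes named were picked as the highest among the genes tested over only 15 mice. Such a choice favours high values by itself, so these are descriptions.

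Single cells showed whether a gene was spread over the cells or held by few of them. Every cell was thinned at random to 3385 UMIs, so that shares of cells with at least 1 UMI could be compared across depths, and 10204 shallower cells were left out. These were 3.93% to 5.79% of the cells of day 1 ATV:4D9 mice and 8.69% to 17.8% of those of ATV:RSV mice, so the shares rest on cells selected to a different degree. For Hspd1 the share was 28.2% ± 3.44 of cells in ATV:RSV mice and 55.9% ± 2.06 at day 1 after ATV:4D9, for Hspe1 46.1% ± 4.95 and 73.3% ± 3.50, and for Hsp90aa1 59.8% ± 6.88 and 85.2% ± 3.19 (SD, n = 3). In all 3 genes every treated mouse was above every control. Hspa5 was detected in 87.9% ± 0.596 of thinned cells in ATV:RSV mice and in 98.1% ± 0.719 at day 1. The share with 5 or more of its UMIs went from 17.1% ± 0.961 to 65.1% ± 5.02. The low-level gene Hsph1 was detected in 6.94% ± 4.89 and 14.2% ± 2.40, and its groups overlapped. With Hsp90ab1, the share was higher in every day 1 mouse than in every control for 5 of the 10 genes, as it was for 24.9% of all genes tested. Without thinning it was so for 7 of the 10 and for 49.2% of all genes. At days 7, 14 and 28 the share of thinned cells with Hspa5 was 81.8%, 85.5% and 84.9%, below every control in each of the 9 mice. Of all genes, 24.2%, 12.1% and 5.41% showed that separation at these days. Without thinning, both the share and the mean UMIs per cell of Hspa5 overlapped the controls at days 14 and 28.

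Hspa1a and Hspa1b were detected in fewer cells than a random spread of their UMIs would give. Hspa1a was detected in 14.6% ± 6.89 of thinned cells in ATV:RSV mice and in 23.2% ± 8.61 at day 1, where the same number of UMIs spread at random over the cells would give 29.1% and 42.7%. For Hspd1 the random share was 28.7% in ATV:RSV mice and 59.2% at day 1, beside 28.2% and 55.9% observed. The variance of Hspa1a over thinned cells was 3.58 to 7.49 times its mean over the 15 mice, that of Hspa1b 1.79 to 3.16 times and that of Dnajb1 1.61 to 2.48 times, whereas Hspd1 (1.00 to 1.22), Hspe1 (1.04 to 1.24) and Hsph1 (1.03 to 1.10) were near 1. The ratio was 1.29 to 1.97 for Hsp90aa1, 1.45 to 1.94 for Hsp90ab1 and 1.43 to 1.98 for Hspa8, which overlaps the range of Dnajb1. That of Hspa5 was 1.65 to 1.94 in ATV:RSV mice and 2.34 to 3.76 at day 1 after ATV:4D9, where Dnajb1 had 1.61 to 1.93 and Hspa1b 1.90 to 2.67. A high ratio alone was therefore not particular to the inducible genes. The genes also differed in mean UMIs per thinned cell, on which this ratio can depend. In ATV:RSV mice that mean was 0.195 to 0.671 for Hspa1a and 2.64 to 2.77 for Hspa5. At day 1 it was 6.67 to 7.37 for Hspa5. The share of cells observed was 0.417 to 0.603 times the random share for Hspa1a over the 15 mice, 0.517 to 0.751 times for Hspa1b and 0.736 to 0.858 times for Dnajb1, against 0.887 to 1.01 times over the other 7 genes. This ratio approaches 1 for genes found in nearly every cell. No class of cells known to lack these genes was among the cells, so the share that free RNA would give was not measured.

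**Figure D3:**
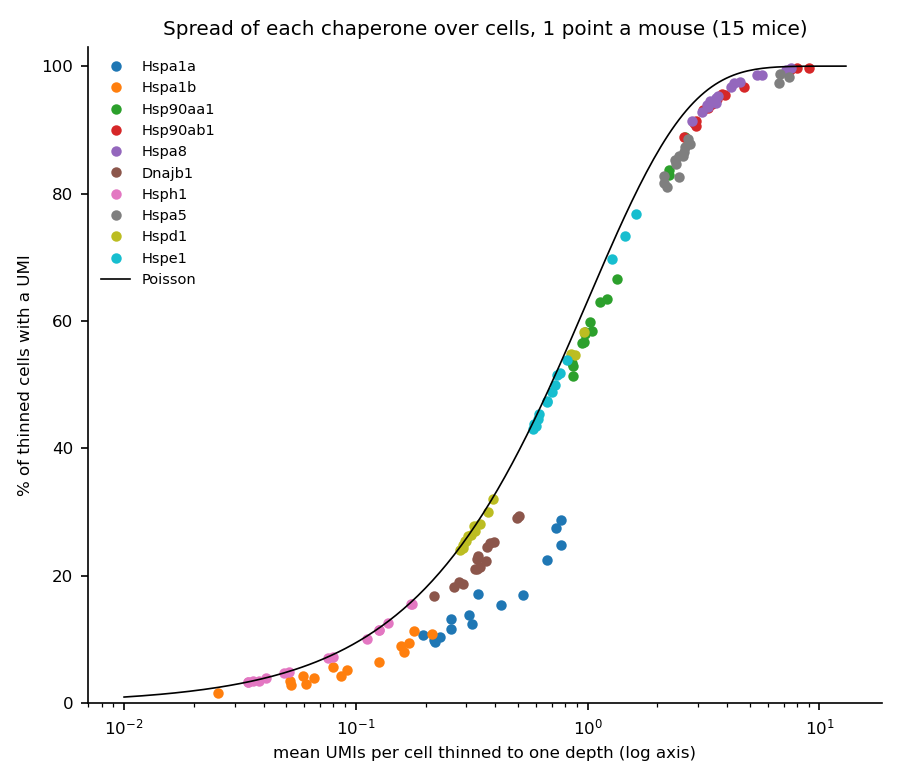
Percent of cells with at least 1 UMI of each gene (y axis) against its mean UMIs per cell (x axis, log scale), in cells thinned to 3385 UMIs, with 1 point per gene and mouse and the line that UMIs spread at random (Poisson) would follow. The points lie 7.07 to 29.0 percentage points below the line for Hspa1a, 2.79 to 10.2 for Dnajb1 and 0.809 to 8.26 for Hspa1b, where Hspa5 lies 1.18 to 8.89 below it and Hspd1 from 0.20 above to 3.97 below.

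Cells with Hspa1a held several of the other genes more often. Among thinned cells with a Hspa1a UMI, 5.03% to 25.4% also had Hspa1b (median 15.5% over the 15 mice). Among cells without Hspa1a the share was 1.30% to 7.11% (median 3.57%). The share was higher with Hspa1a in 15 of 15 mice. Dnajb1 was found in 18.8% to 35.1% of cells with Hspa1a and in 16.5% to 27.7% of those without, again higher in 15 of 15 mice. The same count held for Hsp90aa1, also stress-inducible, with medians of 64.9% and 57.4%, and for the constitutive Hsp90ab1, with medians of 96.3% and 93.7%. For Hspa8, also constitutive, the share was higher in 13 of 15 mice, with medians of 96.5% and 95.2%. A higher share with Hspa1a was thus not particular to the inducible genes. Hspa1b was found in a median of 5.16% of cells with Dnajb1 and 5.32% of those without, and was higher with Dnajb1 in 9 of 15 mice. The correlation of Hspa1a and Hspa1b over cells had a median of 0.33 (0.13 to 0.43 over the mice), and that of every other pair among the 10 genes had a median of 0.16 or lower, with 0.055 for Hspa1a and Dnajb1, 0.089 for Hspa1a and Hsp90aa1 and 0.091 for Hspa1a and Hsp90ab1. In counts this sparse these are descriptions only.

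The cells of each mouse had been assigned by the authors to clusters 0, 1 and 2, and the differences between clusters are described without a test, because these genes could enter the clustering. CPM of the cluster total, not scaled by TMM, were compared here. In cluster 2, which held most cells of the day 1 mice, Hspa5 was 1187 ± 59.2 CPM in ATV:RSV mice and 2145 ± 170 CPM at day 1 after ATV:4D9. In cluster 0 it was 842 ± 21.1 and 1459 ± 246 CPM. In each cluster the ratio of day 1 to ATV:RSV was 1.73, 1.76 and 1.81, below the 2.61 of whole mice on the same scale. Hspd1 had a ratio of 2.78 in whole mice, 1.18 in cluster 0, 1.27 in cluster 1 and 1.82 in cluster 2. The corresponding ratios of Hspe1 were 2.30, 1.32, 1.32 and 1.75. Those of Hsp90aa1 were 2.26, 1.21, 1.46 and 1.44, and those of Hspa8 1.70, 1.20, 1.19 and 1.31. For Dnajb1 the ratios were 0.80, 0.84, 0.88 and 0.73. The day 1 mice had 180 to 555 cells in clusters 0 and 1, and the ATV:RSV mice 76 to 165 cells in cluster 2. Within clusters 0, 1 and 2, 2, 4 and 5 of the 10 genes were higher in every day 1 mouse than in every control. Of all genes tested, 9.9%, 12.2% and 20.9% were higher without overlap within clusters 0, 1 and 2 on that scale, and 35.7% in the sums of whole mice. With the TMM factors of the whole mice the counts were 5, 5 and 5 of the 10 genes, beside 26.1%, 28.4% and 31.4% of all genes, so the scaling moved both the count in cluster 0 and its background.

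**Figure D4:**
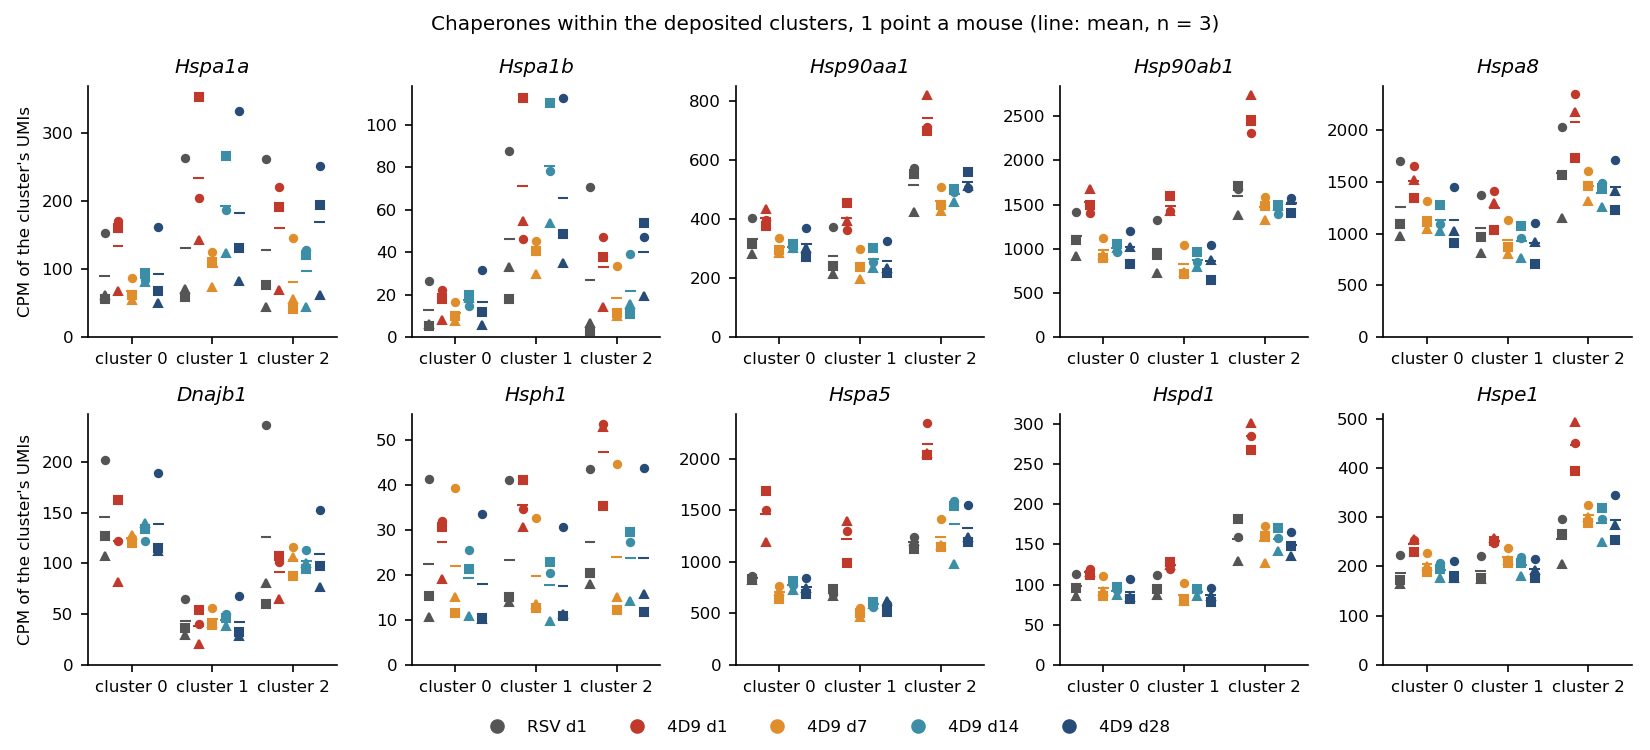
CPM of the cluster total for each of the 10 genes in the deposited clusters 0, 1 and 2, with 1 point per mouse, shaped by batch, the groups in colour and a line at the mean of 3 mice. Hspa5 at day 1 after ATV:4D9 lies above the controls in each cluster, with means of 1459 CPM in cluster 0 and 2145 CPM in cluster 2.

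Cluster 1 differed from cluster 0 in opposite directions among the inducible genes. Hspa1b was 2.10 to 6.79 times as high in cluster 1 as in cluster 0, above 1 in 15 of 15 mice, although it was sparse, with as few as 8 UMIs in cluster 0 and 32 in cluster 1 of a mouse. Hspa1a was 1.05 to 2.82 times as high there, also in 15 of 15 mice. Dnajb1 went the other way, at 0.25 to 0.44 times the level of cluster 0 in every mouse. Hspa8 was at 0.75 to 0.90 times that level. Cluster 2 exceeded cluster 0 in all 15 mice for Hsp90aa1, Hsp90ab1, Hspa8, Hspa5, Hspd1 and Hspe1. The share of all genes that differed between clusters in every mouse was not counted. These differences can therefore not be called particular to the listed genes.

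The differences at day 1 were set against proliferation. Proliferating cells are here the cells with a UMI of Mki67 or Top2a, a definition that favours deep cells. In the 3 day 1 mice Hspa5 was 0.91 to 1.00 times as high in proliferating as in other cells, Hspe1 0.92 to 0.95 times and Hsp90ab1 1.00 to 1.01 times. Hsp90aa1 was 1.25 to 1.28 times as high (means of 850.1 and 675 CPM) and Dnajb1 1.30 to 1.36 times (means of 110 and 83.4 CPM). Hspa1a was 0.77 to 0.89 times as high. With the proliferating cells left out of every mouse, the day 1 differences were 1.66 for Hspa5, 1.71 for Hspd1, 1.49 for Hspe1, 1.35 for Hsp90aa1, 1.42 for Hsp90ab1, 1.00 for Hspa8 and 1.45 for Hsph1, and all 7 passed the test, as did 33.8% of all genes in that direction in that fit.

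The wider chaperone network was read from 127 other genes in lists by role, of which 120 were tested. Each gene is counted once in these totals, whereas some stand in 2 of the lists. At day 1 after ATV:4D9, 80 were higher and 14 lower than in ATV:RSV mice, with a median log2 fold change of 0.63, where 34.7% of all genes were higher and 34.6% lower. These shares apply to each list that follows. The lists were also chosen with earlier results of these data known, so their counts are descriptions. Among genes of endoplasmic reticulum folding, 20 of 25 rose and 3 fell. Sdf2l1, a partner of BiP, had 162, 156 and 167 CPM in ATV:RSV mice and 812, 707 and 987 CPM at day 1. It rose by 2.36 (adjusted p = 1.87e-11). Creld2 rose by 1.78 and Manf, a secreted protein of that compartment, by 1.64. The 3 that fell were Ern1 (-0.62), Eif2ak3 (-0.34) and Atf6 (-0.20), which encode IRE1, PERK and ATF6, the sensors that start the unfolded protein response.

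Of the mitochondrial folding and import genes, 15 of 19 rose and 2 fell. Timm23 rose by 1.41 and Tomm40 by 1.38, both parts of import channels, and Hspa9, the HSP70 of the matrix, by 1.17 (adjusted p = 9.37e-12). Clpx (-0.19) and Yme1l1 (-0.18), which act in proteolysis there, fell. Of the cytosolic chaperonin and prefoldin genes 12 of 14 rose, led by Cct6a, Cct8 and Cct3 at 1.29 each, and Pfdn5 fell by 0.16.

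Of the HSP90 family and its co-chaperones 13 of 19 rose and 2 fell. Cacybp rose by 1.37, Stip1, which links HSP70 to HSP90, by 1.23, and Hsp90b1, the HSP90 of the endoplasmic reticulum, by 1.09 (adjusted p = 3.51e-09), while Cdc37l1 (-0.41) and Unc45a (-0.37) fell. Of the other HSP70 and HSP110 genes 6 of 9 rose and 1 fell, with Hyou1 at 1.21, Hspa4 at 0.95 and Hspa2, near the lower limit of detection at 1.85 against 3.44 CPM, at -0.89. J-domain genes went both ways, 17 of 28 higher and 5 lower. Dnajc9, a chaperone of histones, rose by 3.02, from 12.2 to 99.4 CPM, and Dnajb11, which serves BiP, by 1.36. Dnajb3 rose by 1.19 at under 1 CPM, while Dnajb2 (-0.82), Dnajb4 (-0.56) and Dnajb12 (-0.46) fell.

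Nucleotide exchange genes were higher in 4 of 7, with Bag1 at 1.55 (adjusted p = 1.83e-12), Bag2 at 1.31 and Hspbp1 at 1.22. Of 4 small heat shock proteins tested, 1 rose, Hspb1, by 1.35 (13.9 against 5.68 CPM). Among 4 heat shock factor genes and their binding proteins 1 rose, Hsbp1, by 0.44. With 4 genes tested in each of these lists, the counts were too small to set against the share of all genes. Hsf1, the main heat shock transcription factor, was 21.6 ± 0.104 CPM at day 1 and 23.3 ± 1.22 CPM in ATV:RSV mice, a difference of -0.11 (adjusted p = 0.102), so its RNA was not called changed.

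**Figure D5:**
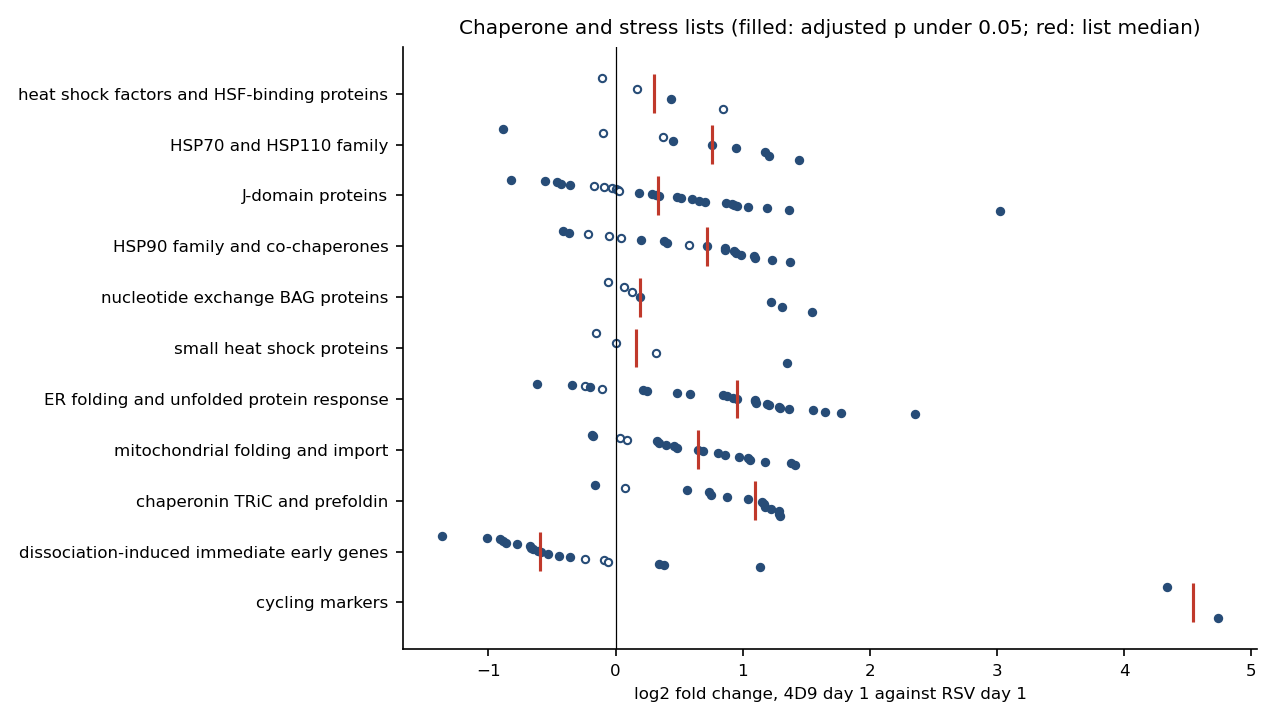
Log2 fold change at day 1 after ATV:4D9 against ATV:RSV for each gene of the lists by role, with 1 point per gene, filled where the adjusted p is under 0.05, and the median of each list as a line. The list of endoplasmic reticulum folding has a median of 0.96 and that of the cytosolic chaperonin and prefoldin 1.10, while the immediate early genes known from tissue dissociation have a median of -0.60.

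At day 7 after ATV:4D9, 3 of the 120 genes were higher, Bag1 by 0.24 (adjusted p = 0.0255), Tomm20 by 0.18 (adjusted p = 0.0430) and Pfdn5 by 0.36 (adjusted p = 4.5e-05), and Dnajb12 was lower by 0.22 (adjusted p = 0.0476). At days 14 and 28 none was called. Of all genes, 3.98%, 0.4% and 0% were called at days 7, 14 and 28, so the counts of the network were near those shares. Between day 1 and day 7, 83 of the 120 fell and 14 rose, where 33.9% of all genes fell and 33% rose.

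Immediate early genes that dissociation is known to induce were tested beside them, since the inducible HSP70 genes respond to handling. At day 1 after ATV:4D9, 3 of 20 were higher and 14 lower, against 34.7% and 34.6% of all genes, with a summed level of 22791 to 26166 CPM against 33659 to 36772 CPM in ATV:RSV mice. Ier3 rose by 1.14, Nfkbia by 0.38 and Socs3 by 0.34, and Klf4 (-1.37), Jund (-1.01) and Rhob (-0.91) fell the most. The part of handling in the levels of Hspa1a, Hspa1b and Dnajb1 was not tested.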

How the data were processed

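Single-cell libraries were made with a 3′ kit with UMIs from CD45 bead-enriched cells of 15 mice, and groups (antibody and day) and batch numbers were taken from the labels. Reads were aligned by the authors to mm10 in Cell Ranger (version 4.0.0 in the submitters' processing notes, whereas the study's methods name a later version), and cells were filtered and then clustered with Seurat. Their filters are not given in the sources used here. The matrix was deposited as raw UMI counts by gene and cell. The deposited cell table held UMI counts and genes per cell, the percent of mitochondrial UMIs, the cluster and the mouse, and per-cell sums of the matrix equalled its UMIs in 102043 of 102043 cells. A 16th animal named in the labels was not analysed here. The handling of doublets is not given in the sources used here, and no caller was run. Instead, 1096 cells with UMIs of at least 3 markers of another cell type were left out in an alternative.

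Counts were summed per mouse, filtered with filterByExpr (minimum count 10, minimum total count 15), given TMM factors from edgeR 4.0.16 and fitted by limma-voom (limma 3.58.1 in R 4.3.3) with 1 mean per group over the 15 mice, and p-values were adjusted by Benjamini-Hochberg over 14260 genes. Genes were called at an adjusted p under 0.05. The study's methods name the same software for sums per mouse, but compare clusters, whereas treatment groups were compared here over all cells of a mouse. The scripts were tested on simulated data. A value with ± gives the mean of 3 mice and their SD. The depth of 32341960 to 70307384 UMIs per mouse gave at least 335 UMIs of every listed gene in every mouse of the day 1 comparison. Cells were thinned to 3385 UMIs, the 10th percentile. Alternatives were library size scaling, DESeq2 size factors, no filter, edgeR, DESeq2 1.42.0, the replicate block, fewer mice, and sums without cycling or doubtful cells or after thinning.

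Per the labels a batch contains every condition, and batch numbers were therefore read as pairing. The main fit held no batch term. The pairing entered only the differences within batches and the alternative with the replicate block. Across genes, residuals from the group means had a mean r of 0.0539 between mice of 1 batch (30 pairs) and of -0.0267 between batches (60 pairs). Residuals from a group mean largely cancel within the group, so these values are tied to each other. Their contrast is therefore not separate evidence on batch. No mice of a group were copies, with r of 0.989 to 0.995 between their values. The text names the 10 listed genes, Hsf1, up to 3 called genes with the highest and 3 with the lowest fold change at day 1 in each other list among those with at least 10 UMIs in each mouse, the genes called at day 7, and the genes most like Hspa1a, Hspa8, Hspa5 and Hspd1. The listed genes, the other lists and the tests were chosen with earlier results of these data known. Promoters of 7 of the 10 genes were found in RefSeq (GRCm38.p6). Gene positions follow GENCODE M21 (mm10) and count from 1. Tests over lists were not run.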

Additional observations from a re-analysis of the deposited data

Results flagged for a closer look

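The level of 7 of the 10 genes differed between days 1 and 7 after ATV:4D9 by the test of that difference itself, so their differences from the shared ATV:RSV mice differed between these days (limma-voom, adjusted p under 0.05). On the log2 scale, day 7 minus day 1 was -1.81 for Hspa5, -1.69 for Hspd1, -1.18 for Hspe1, -1.46 for Hsp90aa1, -1.51 for Hsp90ab1, -1.03 for Hspa8 and -1.45 for Hsph1. All 3 mice of day 7 were below all 3 mice of day 1 for each of these genes, where 35.2% of all genes were lower without overlap. Groups of 3 mice are too small for the search for single mice far from the rest.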

How the results depend on the processing

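Of 800 log2 fold changes under other settings, 717 kept direction and side of the threshold, and 65 changed sign. Of 224 values of called genes, 218 kept both, 6 lost the call and none changed sign. Of 108 counts of genes, 106 were the same as the reported count or within 1.5 times of it, and 2 moved further. The count at day 1 was 7, with 6 by DESeq2, where Hsph1 was 1.29 (adjusted p = 0.0649), 9 with the replicate block, and 6 to 9 when 1 mouse was left out. The count of day 7 against day 1 was 7, with 6 by DESeq2 (Hsph1 -1.28, adjusted p = 0.0678), 8 with the replicate block and 6 to 9 when 1 mouse was left out. The F test gave 6 to 7. Beyond Hspa1a and Hspa1b, the replicate block changed no call of the 10 genes. Without 1 mouse, none of the 10 genes was called at days 7, 14 or 28. Scaled by library size alone, which moved the median of all genes at day 1 from -0.05 to -0.29, 1 of the 10 genes was called at day 7 (Hspa5 -0.28, adjusted p = 0.0300). The count in cluster 0 was 2, and 5 with TMM factors, where 9.9% and 26.1% of all genes were higher without overlap. Hspa1a between days 1 and 7 was -1.06 with only the 6 mice compared (adjusted p = 0.0207), -1.17 without cycling cells (adjusted p = 0.0494) and -1.57 without the day 1 mouse of batch 3 (adjusted p = 0.0119), and Hspa1b -1.32 without that mouse (adjusted p = 0.0476). With 1 mouse left out, the values between these days ranged from -1.57 to -0.79 for Hspa1a and from -1.32 to -0.55 for Hspa1b. Why these calls changed was not tested.

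The values that changed sign belonged to genes that were not called. By library size alone, day 7 gave Hspa1b -0.014, Hspa8 -0.094 and Hspd1 -0.063, and day 14 Dnajb1 -0.031. By edgeR, day 7 gave Hspa1b -0.20 and Hspa8 -0.028, and day 14 Dnajb1 -0.034. By DESeq2, day 7 gave Hspa1b -0.17, Hspa8 -0.020 and Hsph1 0.0062, day 14 Dnajb1 -0.030, and day 7 against day 1 Dnajb1 -0.0094. With no filter, Hspa8 at day 7 was -0.015 and Dnajb1 against day 1 -0.011. With the replicate block Hsph1 at day 7 was 0.0010, and in thinned cells it was 0.059 and Dnajb1 0.038. With 1 mouse left out, Dnajb1 ranged from -0.28 to 0.22 at day 1 and from -0.18 to 0.16 between days 1 and 7. At day 7 the ranges were -0.45 to 0.42 for Hspa1a, -0.45 to 0.81 for Hspa1b, -0.16 to 0.15 for Hsp90aa1, -0.27 to 0.084 for Hsp90ab1, -0.16 to 0.24 for Hspa8, -0.25 to 0.25 for Dnajb1, -0.50 to 0.55 for Hsph1 and -0.079 to 0.14 for Hspd1. At day 14 they were -0.17 to 0.14 for Hsp90aa1, -0.26 to 0.087 for Hsp90ab1, -0.23 to 0.17 for Hspa8, -0.20 to 0.31 for Dnajb1, -0.49 to 0.44 for Hsph1 and -0.13 to 0.069 for Hspd1. At day 28 they were -0.27 to 0.81 for Hspa1a, -0.19 to 0.12 for Hsp90aa1, -0.32 to 0.035 for Hsp90ab1, -0.32 to 0.10 for Hspa8, -0.30 to 0.24 for Dnajb1, -0.90 to 0.23 for Hsph1 and -0.040 to 0.18 for Hspe1. The sums held at least 335 UMIs of every listed gene in every mouse of the day 1 comparison, but Hspa1b was sparse in cells and clusters. Whether depth or the number of 3 mice per group limited the calls was not tested.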
